A study of Homo sapiens with 6 samples.

Results

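Coenzyme Q, or ubiquinone, is a lipid of the inner mitochondrial membrane that takes electrons from complexes I and II and from several other dehydrogenases and passes them to complex III. Cells make it by joining a long polyprenyl tail to 4-hydroxybenzoate and then modifying the ring in a mitochondrial enzyme complex. The reduced form also stops lipid peroxidation in membranes. The 10 genes described here are PDSS1, which makes the tail, COQ2, which joins the tail to the ring, the ring-modifying genes COQ3, COQ4, COQ5, COQ6, COQ7 and COQ9, the kinase-like regulator COQ8A, and ADCK2, a mitochondrial relative of COQ8A whose biochemical role is less settled. COQ2 and ADCK2 were chosen by their low values with shRNA 1 on these same arrays, and the other 8 were added for their role in the pathway. All probe sets annotated to these symbols were taken, 21 of 54675 on the array, and the brightest over all arrays stood for the gene. All 10 genes passed the filter on dim probe sets (mean log2 of at least 4), among 10526 tested genes of 19775 with a probe set of their own.

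The study used H1299 cells, an established line from a human lung carcinoma of the non-small-cell type, grown with 10% serum. Lentivirus delivered an shRNA against RBP2 (RBP2 KD1, here shRNA 1), another shRNA against RBP2 (RBP2 KD2, here shRNA 2), or a scramble shRNA as control, and total RNA was taken after 72 hours. KDM5A, for which RBP2 is another name, is an enzyme that removes methyl groups from lysine 4 of histone H3. Each of the 3 groups had 2 arrays, and no source used here says that they came from separate cultures, so a p-value here reflects the spread among these arrays alone, and that spread may be technical.

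On the log2 scale the array medians over tested genes ran from 8.49 to 8.56. KDM5A was 4.11-fold lower with shRNA 1 and 6.46-fold lower with shRNA 2 than with scramble. KRT8, KRT18 and VIM, markers of the line, read at least 9.80 on every array, whereas 8 markers of leukocytes, endothelium and fibroblasts read between 2.24 and 2.31, at or close to the lowest value of the deposited table. The values come from whole cultures, so fewer cells with a transcript and less transcript per cell cannot be told apart.

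COQ2 and ADCK2 ranked 1 and 3 among 10526 tested genes when ordered from the lowest log2 fold change with shRNA 1, and this is the value they were chosen for, so it is described with no test. COQ2 read 5.43 and 5.09 with shRNA 1, 8.40 and 8.36 with shRNA 2, and 9.16 and 9.11 with scramble. All 6 values separated by group, with the shRNA 1 arrays far below the others and the shRNA 2 arrays below scramble by a smaller step. Relative to scramble, COQ2 was 14.7-fold lower with shRNA 1 (log2 fold change -3.88) and 1.68-fold lower with shRNA 2 (log2 fold change -0.75). ADCK2 read 5.31 and 4.90 with shRNA 1, 8.78 and 8.55 with shRNA 2, and 8.55 and 8.51 with scramble. Only the shRNA 1 arrays stood apart for ADCK2, at 10.8-fold below scramble (log2 fold change -3.43), and the shRNA 2 and scramble ranges met. KDM5A itself was lower with shRNA 2 than with shRNA 1, the opposite order.

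**Figure D1:**
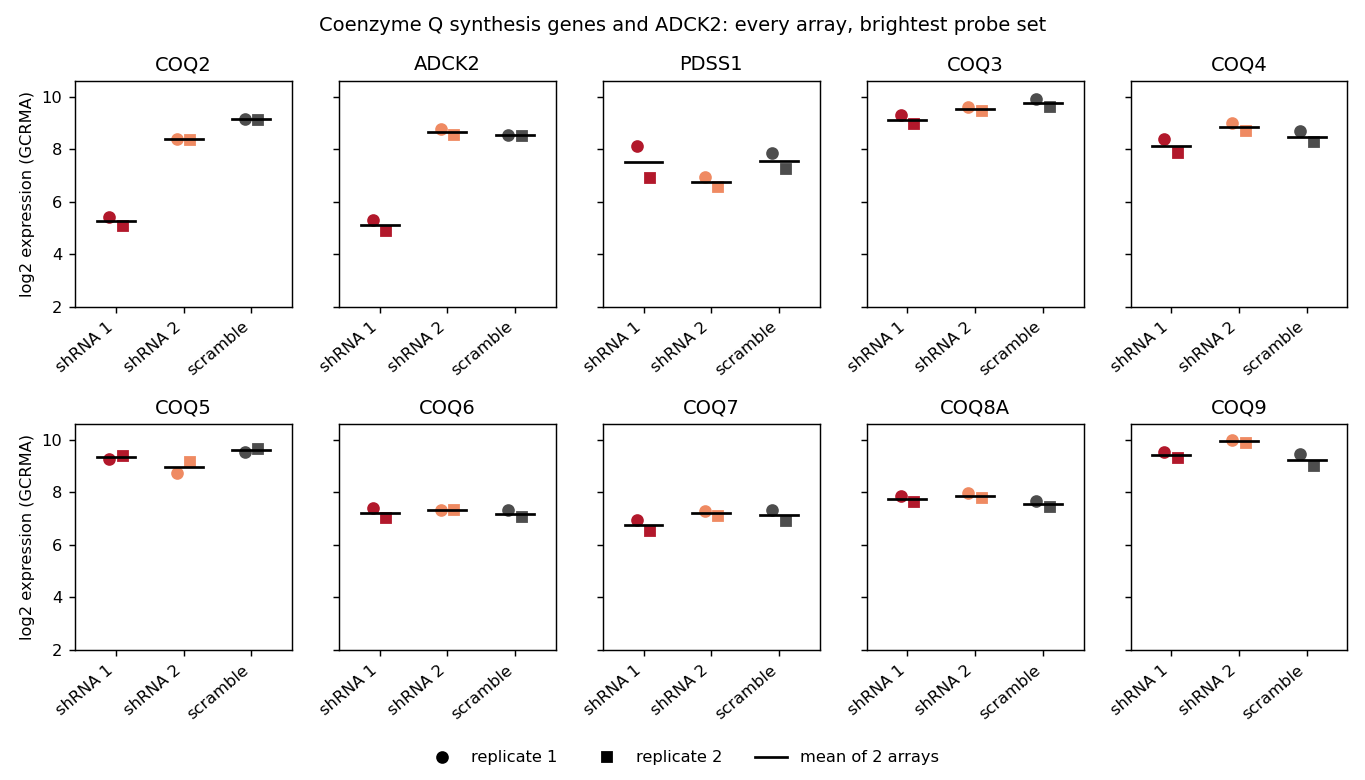
Log2 expression (GCRMA) of the brightest probe set of each of the 10 genes on every array, for RBP2 shRNA 1, RBP2 shRNA 2 and scramble; circles are replicate 1, squares replicate 2, and bars the mean of 2 arrays. COQ2 and ADCK2 sit near 5 with shRNA 1 and above 8 elsewhere, while the other 8 genes show no such step.

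The shRNA 2 arrays did not choose COQ2 or ADCK2, though the scramble arrays they are set against did. In limma's fit over all tested genes COQ2 fell with shRNA 2 by 0.75 ± 0.15 on the log2 scale (SE, n = 2 arrays a group, adjusted p = 0.019). Leaving out shRNA 2 replicate 1 or 2, or scramble replicate 1 or 2, ended that call (limma adjusted p = 0.099, 0.098, 0.091 and 0.078), with the log2 fold change between -0.77 and -0.73. ADCK2 with shRNA 2 had a log2 fold change of 0.13 ± 0.18 (limma adjusted p = 0.60), with a 95% interval from -0.32 to 0.59. Set directly against shRNA 2, the shRNA 1 arrays were lower by log2 differences of -3.12 for COQ2 and -3.56 for ADCK2, again without a test because the shRNA 1 arrays chose both.

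ADCK2 has 3 other probe sets, read here on the same shRNA 1 arrays that chose the gene, so their values are a description. Among them, 221893_s_at read 2.70 and 2.96 with shRNA 1, 7.37 and 7.11 with shRNA 2, and 7.10 and 7.03 with scramble. The probe set 221894_at read 5.52 on both shRNA 1 arrays, against 7.33 and 7.34 with shRNA 2 and 7.14 and 7.33 with scramble. Its log2 fold change with shRNA 1 was -1.71. The probe set 221893_s_at gave a log2 fold change of -4.23 with shRNA 1, and both lay within 0.18 of scramble with shRNA 2. The fourth ADCK2 probe set, 222117_s_at, stood at 2.25 on all arrays and carries no information on either comparison. The only other COQ2 probe set, 232126_at, was below the filter at a mean of 2.87, and its differences from scramble, -0.64 with shRNA 1 and -0.31 with shRNA 2, are between values close to the floor. The large fall of COQ2 therefore rests on 1 probe set, and that of ADCK2 is seen by 3.

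**Figure D2:**
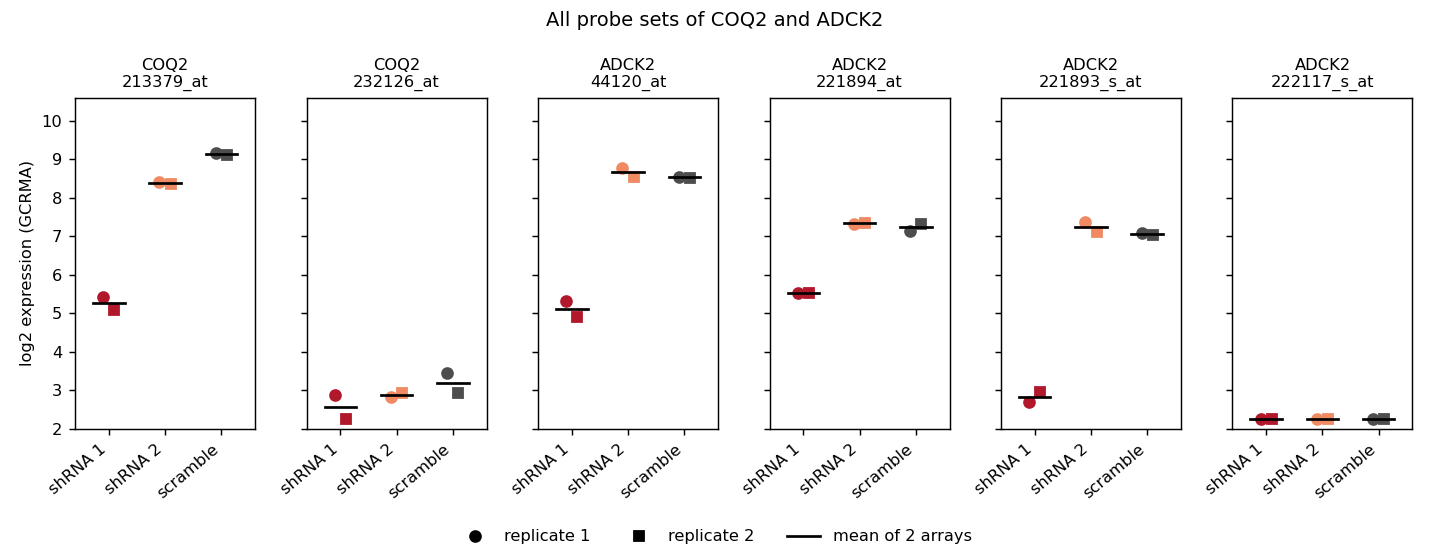
Log2 expression (GCRMA) of the 2 probe sets of COQ2 and the 4 of ADCK2 on every array, by shRNA 1, shRNA 2 and scramble; circles are replicate 1, squares replicate 2, and bars the mean of 2 arrays. In all, 3 ADCK2 probe sets and the bright COQ2 probe set drop with shRNA 1, and 232126_at and 222117_s_at lie near the floor.

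Because KDM5A acts on chromatin at gene starts, the RefSeq promoters of the 3 genes that passed the test with shRNA 2 (COQ2, and COQ5 and COQ9 described below) are shown, 250 bases before to 50 after each start, 5′ to 3′ on the gene's strand in GRCh38.p14. Capitals mark matches, on either strand, to any of CCGCCC, a motif reported for the DNA-binding domain of KDM5A, TTTCGCGC and TTTGGCGC of E2F factors, CCGGAAG of ETS factors, GCATGCGC of NRF1, CCAAT of NF-Y, TGACGTCA of CREB and ATF factors, and TTGCATCA of ATF4 with C/EBP factors.
COQ2, chr4:83284749-83285048, strand -: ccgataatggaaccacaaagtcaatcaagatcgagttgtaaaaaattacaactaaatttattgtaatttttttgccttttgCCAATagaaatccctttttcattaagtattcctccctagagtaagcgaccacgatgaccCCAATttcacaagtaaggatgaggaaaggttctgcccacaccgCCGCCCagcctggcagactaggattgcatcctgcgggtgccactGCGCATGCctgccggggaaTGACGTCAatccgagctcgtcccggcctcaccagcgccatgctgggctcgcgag
COQ5, chr12:120529109-120529408, strand -: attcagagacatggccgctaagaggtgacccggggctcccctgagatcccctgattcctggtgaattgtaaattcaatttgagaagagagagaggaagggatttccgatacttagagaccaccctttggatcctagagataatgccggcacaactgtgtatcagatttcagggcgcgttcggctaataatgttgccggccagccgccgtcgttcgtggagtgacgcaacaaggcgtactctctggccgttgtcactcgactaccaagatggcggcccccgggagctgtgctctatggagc
COQ9, chr16:57447229-57447528, strand +: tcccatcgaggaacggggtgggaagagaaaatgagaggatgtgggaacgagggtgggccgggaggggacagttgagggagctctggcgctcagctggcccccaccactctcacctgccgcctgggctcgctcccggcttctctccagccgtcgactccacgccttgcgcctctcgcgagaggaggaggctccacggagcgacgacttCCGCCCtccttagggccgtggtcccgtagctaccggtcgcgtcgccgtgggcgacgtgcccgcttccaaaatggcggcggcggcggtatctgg

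The COQ2 promoter held CCGCCC beginning at position -67 from the start, the NRF1 motif at -23 on the other strand, 2 CCAAT boxes at -169 and -110, and a TGACGTCA palindrome that begins at -4 and runs across the start. No matches overlapped in this window. Among 35116 RefSeq promoters of the same 300 bases, 45.0% held CCGCCC, 34.6% CCAAT, 3.05% GCATGCGC and 1.85% TGACGTCA. CCGGAAG was in 10.3%, TTGCATCA in 0.866%, TTTGGCGC in 0.652% and TTTCGCGC in 0.515% of them. The COQ9 promoter held CCGCCC alone, at -43, and the COQ5 promoter held none of the 8 motifs. Promoters were matched for 7 of the 10 genes, and COQ2 was the only gene of these 7 with GCATGCGC or TGACGTCA. ADCK2, COQ3 and COQ4 had no promoter sequence here, so they were not searched. A match describes these letters only.

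The remaining pathway genes did not share the large fall with shRNA 1. Of the 8 genes not chosen on values, limma called 0 with shRNA 1 against scramble, beside 11.5% of all tested genes, and 1 had an unadjusted p under 0.05. Their log2 fold changes lay between -0.65 and 0.18 with a median of -0.15, beside a median of 0.00 over all tested genes. With the replicate number as block, a fit that the pairing of the arrays asks for, limma called 2 of the 8 lower, COQ3 (adjusted p = 0.013) and COQ7 (adjusted p = 0.049), beside 29.6% of all tested genes. That share is close to the share of all genes.

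With shRNA 2, limma called 3 of the 10 genes, COQ2 and COQ5 lower and COQ9 higher, beside 31.0% of all tested genes. That share is close to the share of the whole table. The 8 genes not chosen on values had a median log2 fold change of 0.10, beside 0.08 over all tested genes. With that block the count was 6 of 10, beside 50.6% of all tested genes, with PDSS1 (adjusted p = 0.041) lower and COQ4 (0.037) and COQ8A (0.032) higher in addition. Between shRNA 1 and shRNA 2, 0 of the 8 genes were called, beside 41.1% of all tested genes, and 2 had an unadjusted p under 0.05. With the block 6 of the 8 were called, beside 57.7% of all tested genes. These were PDSS1 and COQ5, higher with shRNA 1 (limma adjusted p = 0.042 and 0.040), and COQ3, COQ4, COQ7 and COQ9, lower with shRNA 1 (limma adjusted p = 0.019, 0.0043, 0.016 and 0.016).

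**Figure D3:**
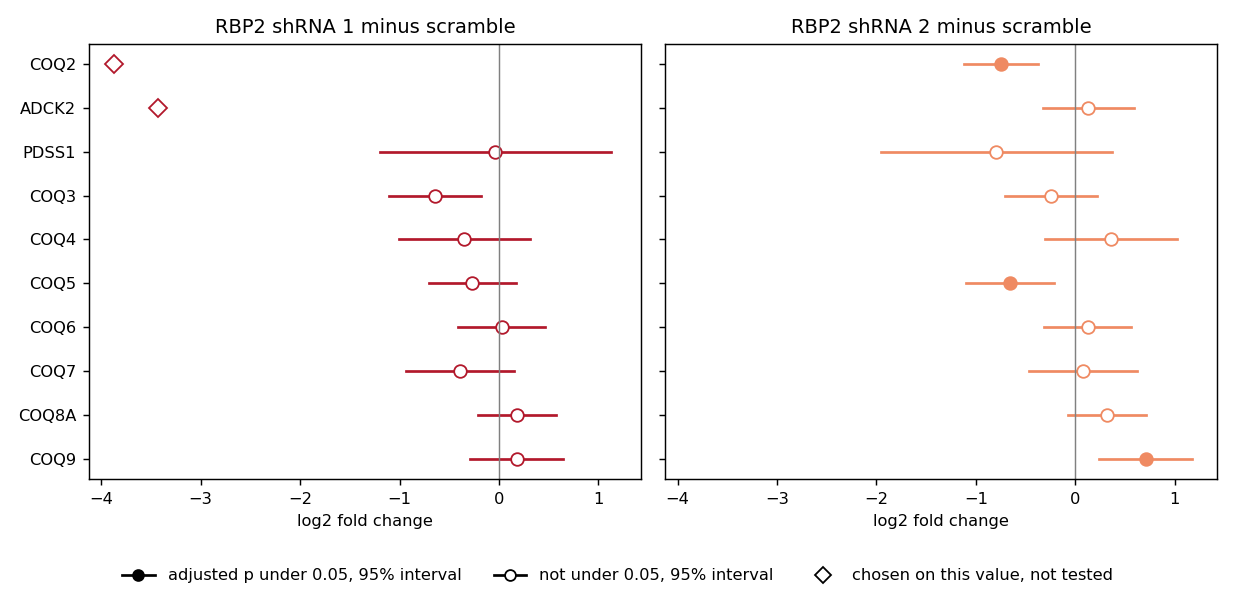
Log2 fold changes of the 10 genes for RBP2 shRNA 1 minus scramble (left) and RBP2 shRNA 2 minus scramble (right); lines are 95% intervals of the limma fit, filled circles have an adjusted p under 0.05, and diamonds are the values that chose COQ2 and ADCK2. On the left the diamonds lie far below the other genes, and on the right COQ2, COQ5 and COQ9 are filled.

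For the tail, PDSS1 read 8.12 and 6.89 with shRNA 1, 6.92 and 6.58 with shRNA 2, and 7.85 and 7.24 with scramble. Its replicates differed more than those of any other of the 10 genes with shRNA 1 and with scramble, by 1.23 and 0.61, and all groups but shRNA 2 and scramble overlapped. The log2 fold changes were -0.04 ± 0.45 with shRNA 1 (SE, limma adjusted p = 0.98) and -0.80 ± 0.45 with shRNA 2 (limma adjusted p = 0.24, and 0.041 with the block). The 95% intervals without the block ran from -1.20 to 1.13 and from -1.96 to 0.37.

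Among the ring methyltransferases, COQ3, which adds methyl groups to ring oxygens, read 9.29 and 8.96 with shRNA 1, 9.62 and 9.44 with shRNA 2, and 9.93 and 9.62 with scramble. The shRNA 1 arrays lay below every other array, and the shRNA 2 and scramble ranges met at 9.62. The log2 fold changes were -0.65 ± 0.18 with shRNA 1 (limma adjusted p = 0.087, and 0.013 with the block) and -0.24 ± 0.18 with shRNA 2 (limma adjusted p = 0.36). Its dimmer probe set gave -0.68 and -0.11, values of the same sign.

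COQ5, which methylates a ring carbon, read 9.27 and 9.40 with shRNA 1, 8.74 and 9.16 with shRNA 2, and 9.54 and 9.67 with scramble. The scramble arrays were the highest and the shRNA 2 arrays the lowest, with no overlap between groups. COQ5 fell with shRNA 2 by 0.65 ± 0.17 (limma adjusted p = 0.043), and with shRNA 1 its log2 fold change was -0.27 ± 0.17 (limma adjusted p = 0.38). COQ5 has no other probe set here. Without any 1 of the 6 arrays the shRNA 2 call was lost, with limma adjusted p between 0.051 and 0.16 and log2 fold changes between -0.86 and -0.45.

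Of the ring hydroxylases, COQ6 read 7.40 and 7.03 with shRNA 1, 7.31 and 7.31 with shRNA 2, and 7.31 and 7.06 with scramble, and its groups overlapped or met. Its log2 fold changes were 0.03 ± 0.17 with shRNA 1 and 0.13 ± 0.17 with shRNA 2 (limma adjusted p = 0.94 and 0.60), with 95% intervals from -0.41 to 0.47 and from -0.31 to 0.57. COQ7, the di-iron hydroxylase, read 6.94 and 6.54 with shRNA 1, 7.30 and 7.11 with shRNA 2, and 7.33 and 6.93 with scramble. The shRNA 1 and scramble ranges met at their edge, and the shRNA 2 arrays lay inside the scramble range. The log2 fold changes of COQ7 were -0.39 ± 0.21 with shRNA 1 (limma adjusted p = 0.30, and 0.049 with the block) and 0.08 ± 0.21 with shRNA 2 (limma adjusted p = 0.81). Its 2 dimmer probe sets gave -0.28 and -0.22 with shRNA 1 and 0.28 and 0.01 with shRNA 2.

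COQ9, the lipid-binding partner of COQ7, moved the other way from COQ2 with shRNA 2. It read 9.53 and 9.29 with shRNA 1, 9.99 and 9.90 with shRNA 2, and 9.45 and 9.02 with scramble. Both shRNA 2 arrays were above every other array, and the shRNA 1 and scramble arrays overlapped. COQ9 rose by 0.71 ± 0.18 with shRNA 2 (limma adjusted p = 0.041), and its log2 fold change with shRNA 1 was 0.18 ± 0.18 (limma adjusted p = 0.58). Its other probe set was below the filter, at a mean of 2.94, and gave 0.29 with shRNA 2 and 0.08 with shRNA 1. Without any 1 of the 6 arrays the shRNA 2 call was lost, with limma adjusted p between 0.055 and 0.18 and log2 fold changes between 0.50 and 0.92.

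COQ4, a component of the synthesis complex needed for ring modification, read 8.41 and 7.86 with shRNA 1, 9.002 and 8.68 with shRNA 2, and 8.69 and 8.27 with scramble. The scramble range overlapped that of each shRNA, and the shRNA 1 and shRNA 2 ranges did not overlap each other. Its log2 fold changes were -0.35 ± 0.26 with shRNA 1 (limma adjusted p = 0.44) and 0.36 ± 0.26 with shRNA 2 (limma adjusted p = 0.34, and 0.037 with the block). The other COQ4 probe set gave -0.03 and 0.27. The difference between the shRNAs was -0.71 ± 0.26 (limma adjusted p = 0.083, and 0.0043 in the blocked fit).

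COQ8A, the kinase-like ATPase of the UbiB family that regulates the complex, read 7.85 and 7.62 with shRNA 1, 7.98 and 7.78 with shRNA 2, and 7.67 and 7.45 with scramble. The shRNA 1 arrays overlapped scramble, and the shRNA 2 arrays were above it. The log2 fold changes were 0.18 ± 0.15 with shRNA 1 (limma adjusted p = 0.50) and 0.32 ± 0.15 with shRNA 2 (limma adjusted p = 0.17, and 0.032 with the block). The 95% intervals without the block ran from -0.21 to 0.57 and from -0.07 to 0.71. The interval with shRNA 1 does not reach the fall seen for ADCK2. The other COQ8A probe set stood near the floor on all arrays.

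Other UbiB relatives were measured as well. ADCK1 read 6.63 and 6.28 with shRNA 1, 7.34 and 7.22 with shRNA 2, and 6.01 and 5.86 with scramble. It rose 2.54-fold with shRNA 2 (log2 fold change 1.34 ± 0.16, limma adjusted p = 0.0063), a call lost without shRNA 2 replicate 1 (adjusted p = 0.060), and its log2 fold change with shRNA 1 was 0.52 ± 0.16 (limma adjusted p = 0.11, and 0.026 with the block). COQ8B, also called ADCK4, gave -0.45 on the log2 scale with shRNA 1 (limma adjusted p = 0.10, and 0.023 with the block) and 0.16 with shRNA 2 (limma adjusted p = 0.41). ADCK5 was below the filter. Of the 2 tested relatives, 0 were called with shRNA 1 (1 higher and 1 lower with the block), beside 11.5% of all tested genes (29.6% with the block). With shRNA 2, 1 was called higher in either fit, beside 31.0% of all tested genes (50.6% with the block). So few genes do not set the list apart from those shares.

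Of 10 further genes of the head group, the tail and the handling of coenzyme Q, 7 were tested. The largest change among them was in STARD7, a lipid transfer protein that carries phosphatidylcholine to mitochondria and coenzyme Q away from them. STARD7 read 8.21 and 8.29 with shRNA 1, 10.84 and 10.73 with shRNA 2, and 10.46 and 10.30 with scramble. As with ADCK2, only the shRNA 1 arrays lay below scramble, and here the shRNA 2 arrays lay above it. STARD7 was 4.39-fold lower with shRNA 1 (log2 fold change -2.13 ± 0.12, limma adjusted p = 0.0048) and had a log2 fold change of 0.40 ± 0.12 with shRNA 2 (limma adjusted p = 0.057, and 0.030 with the block). Without single arrays the fall with shRNA 1 stayed, with a log2 fold change between -2.21 and -2.06. Its call was lost without scramble replicate 1 or 2, which leaves 1 scramble array.

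With shRNA 1, STARD7 was the only called gene of these 7, beside 11.5% of all tested genes, and the list's median log2 fold change was 0.00, the same as over all tested genes. With the block 3 were lower, adding HPDL and COQ8B, beside 29.6% of all tested genes. With shRNA 2, 3 of the 7 rose and 0 fell (5 and 0 with the block), beside 31.0% of all tested genes called in either direction (50.6% with the block). The list's median was 0.55, beside 0.08 over all tested genes. The rises were in PDSS2, the partner of PDSS1 (0.55 ± 0.10, limma adjusted p = 0.018), COQ10B, a coenzyme Q binding protein (0.74), and FDX2, a mitochondrial ferredoxin (0.70). COQ10B and FDX2 are named after their values had been seen. The PDSS2 and COQ10B calls were lost without any 1 shRNA 2 or scramble array (highest limma adjusted p = 0.091 and 0.11), and that of FDX2 without any 1 of the 6 arrays (highest 0.17). A dimmer PDSS2 probe set had the opposite sign with shRNA 2, at -1.36. HPDL, a mitochondrial dioxygenase of head group synthesis, was dim, with means of 3.46 (shRNA 1), 4.76 (shRNA 2) and 4.09 (scramble). Its mean over all arrays, 4.10, passed the filter of 4 only with the shRNA 2 arrays included. Its log2 fold change with shRNA 1 was -0.63 (limma adjusted p = 0.23, and 0.047 with the block). With shRNA 2 it was 0.67, a description only. HPDL is nevertheless among the 5 rises counted with the block, and its value enters the list's median of 0.55.

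The mevalonate and isoprenoid genes supply the units of the tail. With shRNA 1, 3 of 8 tested genes rose and 0 fell, with a median of 0.62, beside 11.5% of all tested genes called. With the block 4 rose and 0 fell, adding IDI1 (limma adjusted p = 0.066 without the block and 0.041 with it), beside 29.6% of all tested genes. With shRNA 2, 2 rose and 2 fell in either fit, with a median of 0.00, beside 31.0% of all tested genes (50.6% with the block). Set against shRNA 2, shRNA 1 had 5 of the 8 genes called higher and 0 lower in either fit, beside 41.1% of all tested genes (57.7% with the block). FDPS, which makes farnesyl diphosphate, read 13.50 and 13.51 with shRNA 1, 12.07 and 12.51 with shRNA 2, and 12.45 and 12.04 with scramble, and it rose 2.39-fold with shRNA 1 (limma adjusted p = 0.029). The other rises with shRNA 1 were HMGCS1 and MVD, named after their values had been seen (log2 fold changes 0.72 and 0.72). GGPS1, which makes geranylgeranyl diphosphate, fell 3.89-fold with shRNA 2 (log2 fold change -1.96 ± 0.12, limma adjusted p = 0.0028), and its log2 fold change with shRNA 1 was 0.11. ACAT2 also fell with shRNA 2, by 1.22 on the log2 scale (limma adjusted p = 0.024). IDI1 rose with shRNA 2 by 0.92 (limma adjusted p = 0.014), but turned to -0.71 once probe sets open to cross-hybridisation were dropped. GGPS1 kept its call without each array. FDPS, HMGCS1 and MVD lost their shRNA 1 calls without any 1 of the 6 arrays (highest limma adjusted p = 0.13, 0.14 and 0.12). ACAT2 lost its call without either shRNA 2 array or scramble replicate 1 (highest 0.14), and IDI1 without either shRNA 2 array or scramble replicate 2 (highest 0.083).

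**Figure D4:**
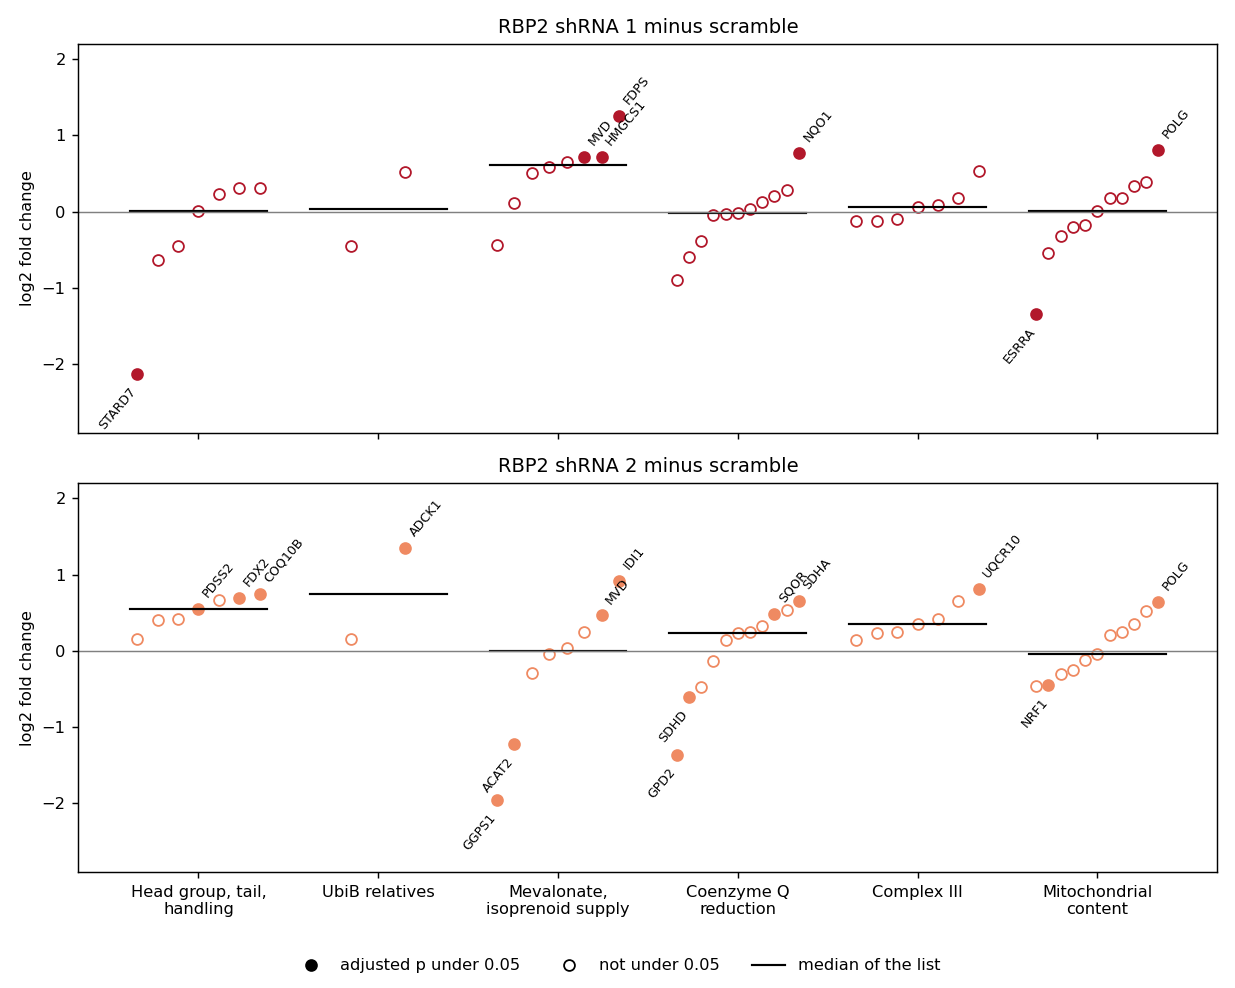
Log2 fold changes of the tested genes of 6 lists around coenzyme Q for RBP2 shRNA 1 minus scramble (top) and RBP2 shRNA 2 minus scramble (bottom); filled circles have a limma adjusted p under 0.05 and carry their name, and bars are list medians. STARD7 and ESRRA lie lowest in the top panel, and GGPS1 and GPD2 lie lowest in the bottom panel.

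Among enzymes that reduce coenzyme Q, 1 of 11 tested genes rose with shRNA 1 and 0 fell (1 and 1 with the block), beside 11.5% of all tested genes (29.6% with the block). The gene lower with the block was AIFM2, named after its values had been seen. Its log2 fold change was -0.90 with shRNA 1 (limma adjusted p = 0.14, and 0.0094 with the block). With shRNA 2 it was 0.54 (limma adjusted p = 0.26, and 0.017 with the block). With shRNA 2, 2 of the 11 rose and 2 fell (4 and 2 with the block), beside 31.0% of all tested genes (50.6% with the block). NQO1, a cytosolic quinone reductase, rose by 0.77 ± 0.11 with shRNA 1 (limma adjusted p = 0.019). With shRNA 2, SDHA, the flavoprotein of succinate dehydrogenase, rose by 0.65 (limma adjusted p = 0.015) and SDHD, a membrane anchor of the same complex, fell by 0.61 (limma adjusted p = 0.030). GPD2, the mitochondrial glycerol-3-phosphate dehydrogenase, fell by 1.36 with shRNA 2 (limma adjusted p = 0.0091). Its log2 fold change with shRNA 1 was -0.60 (limma adjusted p = 0.11). A dimmer GPD2 probe set had the opposite order, at -0.9997 with shRNA 1 and -0.43 with shRNA 2. NQO1 lost its call without any 1 of the 6 arrays (highest limma adjusted p = 0.11), SDHA and SDHD without any 1 shRNA 2 or scramble array (highest 0.077 and 0.13), and GPD2 without scramble replicate 1 (0.061). The medians of the list were -0.02 with shRNA 1 and 0.23 with shRNA 2.

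Complex III, which oxidises coenzyme Q, had 0 of 7 tested subunits called with shRNA 1 (1 higher with the block), beside 11.5% of all tested genes (29.6% with the block). With shRNA 2, 1 subunit was called higher (3 with the block), beside 31.0% of all tested genes (50.6% with the block). UQCR10 rose with shRNA 2 by 0.81 ± 0.21 (limma adjusted p = 0.040), and UQCRC2 gave -0.13 on the log2 scale with shRNA 1 (limma adjusted p = 0.57) and 0.35 with shRNA 2 (limma adjusted p = 0.093, and 0.041 with the block). Of 11 tested markers of mitochondrial content and biogenesis, 1 rose and 1 fell with shRNA 1, with a median of 0.01, beside 11.5% of all tested genes called. With the block 1 rose and 2 fell, adding TFAM, a mitochondrial transcription factor named after its values had been seen (log2 fold change -0.55, limma adjusted p = 0.19 without the block and 0.029 with it), beside 29.6% of all tested genes. POLG, the mitochondrial DNA polymerase, rose by 0.81 with shRNA 1 and 0.64 with shRNA 2 (limma adjusted p = 0.017 and 0.013). ESRRA, a nuclear receptor that drives mitochondrial genes, was lower by 2.54-fold with shRNA 1, at an adjusted p of 0.0076 in limma, and had a log2 fold change of -0.04 with shRNA 2. With shRNA 2, 1 of the 11 rose and 1 fell (2 and 2 with the block), beside 31.0% of all tested genes (50.6% with the block), and NRF1, a transcription factor of nuclear genes for mitochondria, fell by 0.45 (limma adjusted p = 0.042). UQCR10 lost its call without each array but scramble replicate 1 (highest limma adjusted p = 0.18), and ESRRA without shRNA 1 replicate 1 or either scramble array (highest 0.070). POLG with shRNA 1 and NRF1 lost theirs without any 1 of the 6 arrays (highest 0.10 and 0.15), and POLG with shRNA 2 without any 1 shRNA 2 or scramble array (highest 0.076). The named genes outside the 10, with SQOR, MVK and AIFM2 of the lists and the chromosomal neighbours of COQ2 and ADCK2, had 46 called differences. Most of these lost their call without at least 1 array, and 0 changed direction. Leaving out an array leaves 1 in its group, so a lost call does not mark a gene as less steady than other genes.

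The genes with profiles most like COQ2 and ADCK2 were named by the smallest root mean square difference over the 6 arrays after setting each gene's scramble mean to 0. The arrays are 2 a group, so this likeness rests on few independent values, and the values below are descriptions. CPD, a carboxypeptidase of the secretory pathway, came closest to COQ2 (difference 0.53 log2 units), at -3.25 with shRNA 1 and -1.04 with shRNA 2 relative to scramble. ADCK2 was next (0.58), which follows in part from the choice of both genes for the same fall. HAX1, CD163L1 and FECH, the ferrochelatase of haem synthesis, were at 0.65, 0.70 and 0.71.

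For ADCK2 the closest gene was PFN2, an actin-binding profilin, at 0.32, at -3.15 with shRNA 1 and 0.34 with shRNA 2 relative to scramble. OGFRL1, KRT15, TSR3 and THSD4 followed at 0.43 to 0.46. The log2 fold changes of these 5 genes ran from -3.29 to -2.82 with shRNA 1 and from -0.05 to 0.58 with shRNA 2. COQ2 was number 10 in that order.

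**Figure D5:**
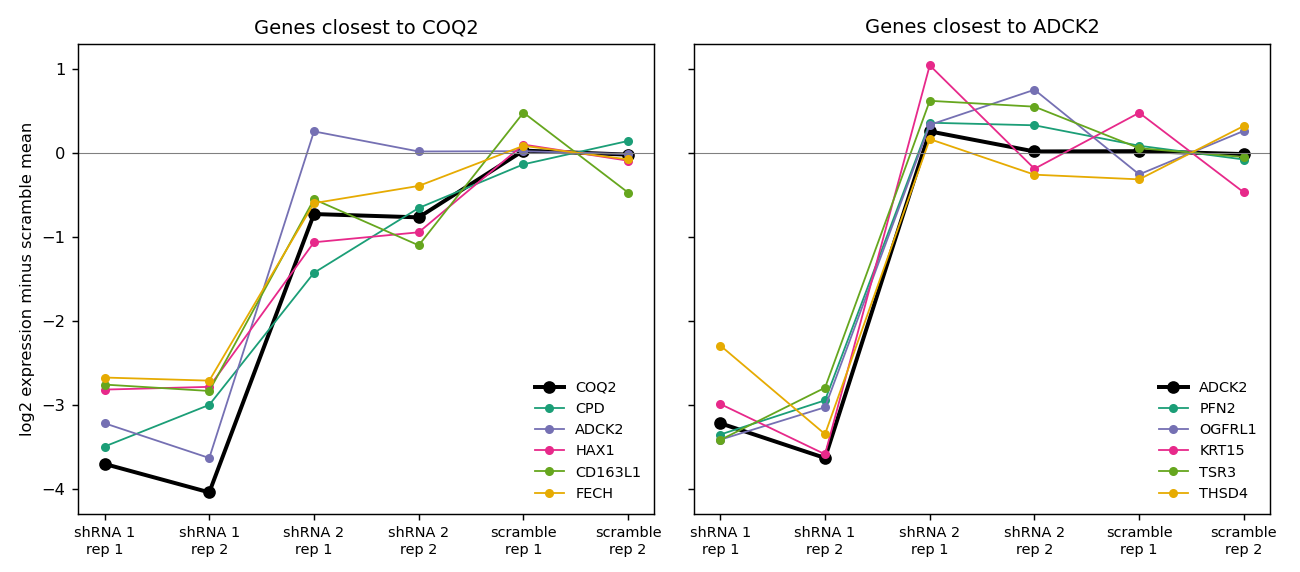
Log2 expression minus the scramble mean on each of the 6 arrays for COQ2 (left) and ADCK2 (right), in black, and for the 5 genes closest to each, in colour; lines only join the arrays of a gene. With shRNA 2 the genes near ADCK2 scatter around and above 0, and those near COQ2 other than ADCK2 lie below 0.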

How the data were processed

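The authors deposited 1 log2 value per probe set and array, and the submitters' processing notes name GCRMA with no version. GCRMA uses probe sequence to correct background, then normalizes the arrays, and it leaves dim probe sets at a floor, here 2.24. That the scale is log2 was read from the values. The platform annotation gave 1 symbol to 41091 probe sets, 1801 had several and 11721 none, and only the first kind were named.

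The brightest probe set stood for a gene, and genes with a mean of at least 4 were tested. Limma 3.58.1 in R 4.3.3 fitted 1 model over all 6 arrays, with 3 residual degrees of freedom, two-sided, and Benjamini-Hochberg adjustment over 10526 genes; a gene was called at an adjusted p under 0.05. The median SE was 0.17, and 2 arrays a group limit the precision. The fit without the block was tested on simulated data whose noise was independent between arrays. The real arrays were correlated, as given below, and the blocked fit was not tested in this way.

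Replicate numbers come from the titles. Deviations of same-numbered arrays correlated at 0.75 (shRNA 1 with scramble), 0.51 (shRNA 2 with scramble) and 0.535 (shRNA 1 with shRNA 2), so the numbers were taken as pairs, and values with the number as a block are given beside a printed test whose call they change. Comparisons with scramble share its 2 arrays.

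The genes and lists were chosen with earlier results of these data known. From each list up to 4 genes called in any comparison were named by smallest adjusted p. Promoters are RefSeq's. Alternatives varied the filter, probe set choice, normalization, prior, groups fitted, block and arrays.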

Additional observations from a re-analysis of the deposited data

Results flagged for a closer look

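These genes, named from the lists by smallest adjusted p, differed between shRNA 1 and shRNA 2 by limma's test of that difference (adjusted p under 0.05). The naming used the smallest adjusted p over all comparisons, this one included, so passing here is no separate support. Of all tested genes, 41.1% passed, a share that genes chosen in this way cannot be set against. Values are log2, shRNA 1 minus shRNA 2. HMGCS1 (0.48), MVK (0.80) and AIFM2 (-1.43) of the lists, outside that naming rule, passed as well. Relative to scramble, a dimmer HMGCS1 probe set had the opposite order, at 0.77 with shRNA 1 and 0.91 with shRNA 2. The other MVK probe sets gave 0.13 and 0.23 with shRNA 1 and 0.02 and 0.003 with shRNA 2, a smaller gap. Lower with shRNA 1 were STARD7 (-2.53), ESRRA (-1.30), HPDL (-1.30), ADCK1 (-0.82), VDAC1, an outer membrane channel (-0.72), COQ8B (-0.61), UQCRC2 (-0.48) and SDHA (-0.44). HPDL was dim and passed the filter only with its shRNA 2 arrays included, so its difference is a description. Higher with shRNA 1 were GGPS1 (2.07), ACAT2 (1.81), FDPS (1.22), SDHD (0.89), GPD2 (0.76) and NQO1 (0.53). A dimmer GPD2 probe set had the opposite order relative to scramble, at -0.9997 with shRNA 1 and -0.43 with shRNA 2. STARD7, ESRRA and GGPS1 kept the call without each array in turn, and every other gene given here lost it without at least 1 array.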

How the results depend on the processing

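The number of the 8 genes called with shRNA 1 (0) was 2 with the replicate block and 0 under every other alternative run. With shRNA 2, the 3 of 10 became 6 with the replicate block, 1 with only the 2 groups of the comparison fitted, 0 with no filter on dim probe sets, and 0 to 1 when each array was left out in turn; it was 2 or 3 under the other settings, including all probe sets tested together (2), an alternative chosen after seeing the data. Between the shRNAs the 0 of 8 became 6 with the replicate block and 1 with averaged probe sets. For the 10 genes the block changed no call other than those given. Of 444 values of the 10 genes under alternatives, 9 changed sign. PDSS1 with shRNA 1 was 0.00964 after another quantile normalization and -0.65 to 0.58 without single arrays. Without single arrays COQ6 and COQ9 with shRNA 1 ran from -0.16 to 0.22 and from -0.036 to 0.39, COQ7 with shRNA 2 from -0.13 to 0.28, and COQ6 between the shRNAs from -0.28 to 0.088. COQ2 and ADCK2 with shRNA 1 stayed between -4.04 and -3.71 and between -3.64 and -3.22 without single arrays, and were -2.26 and -2.34 when the probe sets of a gene, those at the floor included, were averaged. With that average PDSS2 with shRNA 2 was -0.20, and without cross-hybridising probe sets IDI1 with shRNA 2 was -0.71. Without single arrays, only 0% to 1.81% of all genes were called with shRNA 1, with 2 residual degrees of freedom. The causes were not tested.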

Other observations

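Genes that lie beside COQ2 and ADCK2 on their chromosomes, taken as the nearest 2 protein-coding genes on each side in RefSeq, did not show the fall with shRNA 1. Beside COQ2 on chromosome 4, COPS4, PLAC8, HPSE and HELQ were at 0.33, -0.46, -0.71 and -0.14 with shRNA 1 relative to scramble on the log2 scale. Limma called 0 of these 4 (adjusted p = 0.12, 0.47, 0.055 and 0.56), beside 11.5% of all tested genes, a share that 4 genes cannot be told apart from. In the limma fit blocked on replicate number HPSE was called lower (adjusted p = 0.011), beside 29.6% of all tested genes. With shRNA 2, HELQ rose by 0.71 (limma adjusted p = 0.019). PLAC8 and HPSE were at 0.71 and 0.39 with shRNA 2 (limma adjusted p = 0.20 and 0.13, and 0.014 and 0.026 in the blocked fit). Beside ADCK2 on chromosome 7, NDUFB2, a subunit of complex I, and MKRN1 were at -0.25 and 0.05 with shRNA 1 (limma adjusted p = 0.34 and 0.90). With shRNA 2, NDUFB2 rose by 0.58 (limma adjusted p = 0.042) and MKRN1 fell by 1.27 (limma adjusted p = 0.012). Without any 1 shRNA 2 or scramble array the HELQ call was lost (highest limma adjusted p = 0.085), without any 1 of the 6 arrays that of NDUFB2 (0.18), and without shRNA 2 replicate 1 or either scramble array that of MKRN1 (0.072). DENND2A stood near the floor, and BRAF was not analysed here.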
